A study of Equus caballus with 21 samples.

Results

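The comparison set luminal against glandular epithelium of the horse endometrium on day 12 of the estrous cycle, within the same biopsies. Its members were chosen by their labels: 4 luminal and 4 glandular libraries, 1 of each from mares B, C, M and U, which made 8 of the 21 libraries in the series. A cyclic luminal library of mare J had no glandular partner. It stayed out of the test and is given as a level only. All 8 libraries came from healthy warmblood mares in a cycle without insemination, after ovulation had been induced with human chorionic gonadotropin. Endometrium was biopsied on day 12 of that cycle, and both epithelia of a mare were cut from frozen sections of the same biopsy by laser capture microdissection, a method that excises chosen areas of a stained section under the microscope. The age of the mares is not given in the labels. The labels name 5 mares, whereas the design text of the series counts 6. The little RNA that captured tissue yields was amplified with a kit made for single cells, and a number of libraries received further amplification without the labels saying which.

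The endometrium has an epithelial surface and epithelial tubes below it. The luminal epithelium lines the uterine cavity, is the first maternal tissue that a conceptus meets, and holds secretory and ciliated cells. The glandular epithelium forms glands that open through this surface and release proteins, lipids and ions into the cavity, the uterine milk on which the horse conceptus lives for weeks before it implants. Day 12 of the cycle falls in diestrus, when progesterone from the corpus luteum drives this secretion.

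Levels are given in CPM, read counts scaled to a common library size after correction by the trimmed mean of M values, and the 4 values of a group always follow the order of mares B, C, M and U. In a single library 3 counts were worth 2.87 to 9.49 CPM in luminal and 2.71 to 16.6 CPM in glandular libraries. Differences are log2 fold changes, luminal minus glandular, ± SE from edgeR's quasi-likelihood fit with the mare as a block. A gene is called higher or lower where its p lay under 0.05 after Benjamini-Hochberg adjustment across every gene in the fit. Each mare gave 1 library per epithelium, so the spread of the 4 levels in a group is that between mares. The SE is not that spread. It comes from a fit that shares information on variability across genes, so it can be smaller than a gene's own pairs would give.

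The libraries were shallow and uneven. Total counts were 402524, 1382614, 324704 and 634559 in luminal libraries, against 1079351, 600512, 222623 and 360167 in glandular libraries. Between 6116 and 11798 genes had a count in a luminal library, against 5093 to 10151 in a glandular one. The glandular library of mare M, the shallowest, stood apart: it lay at 197 on the first principal component (32.2% of the variance), with the other 7 between -60.5 and 27.9. The luminal library of mare M lay at -165 on the second component (23.4%). Counts of calls are therefore also given without mare M, for all genes and for some of the lists below. The other lists can hold other calls then. Across genes, log2 levels of 2 luminal libraries correlated with a median r of 0.405, those of 2 glandular libraries with 0.393, and those of the 2 epithelia of 1 biopsy with 0.294. Genes do not count as replicates here, and the values describe likeness only.

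Of 4600 genes tested, 120 (2.61%) were called: 55 (1.2%) higher and 65 (1.41%) lower in luminal epithelium. These shares are the background for the called genes of each list below. The called genes differed by large amounts, with a median size of 4.83 on the log2 scale among the higher and 4.10 among the lower genes, and with the smallest at 2.13 and 2.01. All 55 higher genes had a higher level in the luminal library of every mare, and 64 of the 65 lower genes had a lower one. This held in either direction for 23.8% of all genes tested. The luminal and glandular values of 50 higher genes did not overlap, against 5.41% of all genes, and nor did those of 60 lower genes, against 3.96%. As the genes were called on these same libraries, both traits were nearly given in advance and are no separate support. The median difference of all genes tested was 0.26, and 55.4% of them lay above 0.

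The count of calls moved with the mares in the fit, which held 3 pairs when 1 was left out. It was 15 without mare B, 55 without C, 192 without M and 14 without U. Without mare M, 6024 genes could be tested. All 120 called genes kept their sign there, 98 of them were called (48 of the 55 higher and 50 of the 65 lower genes), and 94 further genes were called. Every called gene that could be tested kept its sign without each mare (120 without B, M or U and 116 without C). The genes were called on these same pairs and nearly all had 1 direction in every mare. Kept signs were thus nearly given in advance and are no separate support. Their median size on the log2 scale was 4.31 without B, 5.07 without C, 3.95 without M and 4.51 without U. It was 4.49 over the 120 genes in the 4 pairs. No gene was called when the authors' deposited signal was tested with limma in place of the counts, where 1125 genes had an unadjusted p under 0.05. The number of genes in that test is not given here, so the 1125 cannot be set against chance. Of the 51 called genes picked by the naming rule, 37 lost their call without mare B, 22 without C, 7 without M and 41 without U, and none changed direction. Changes of processing ended calls too: 22 with scaling by relative log expression, 16 with no low-count filter and 19 in a joint fit with the libraries of pregnancy. Mares named below with a lost call do not exclude losses to such changes.

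**Figure D1:**
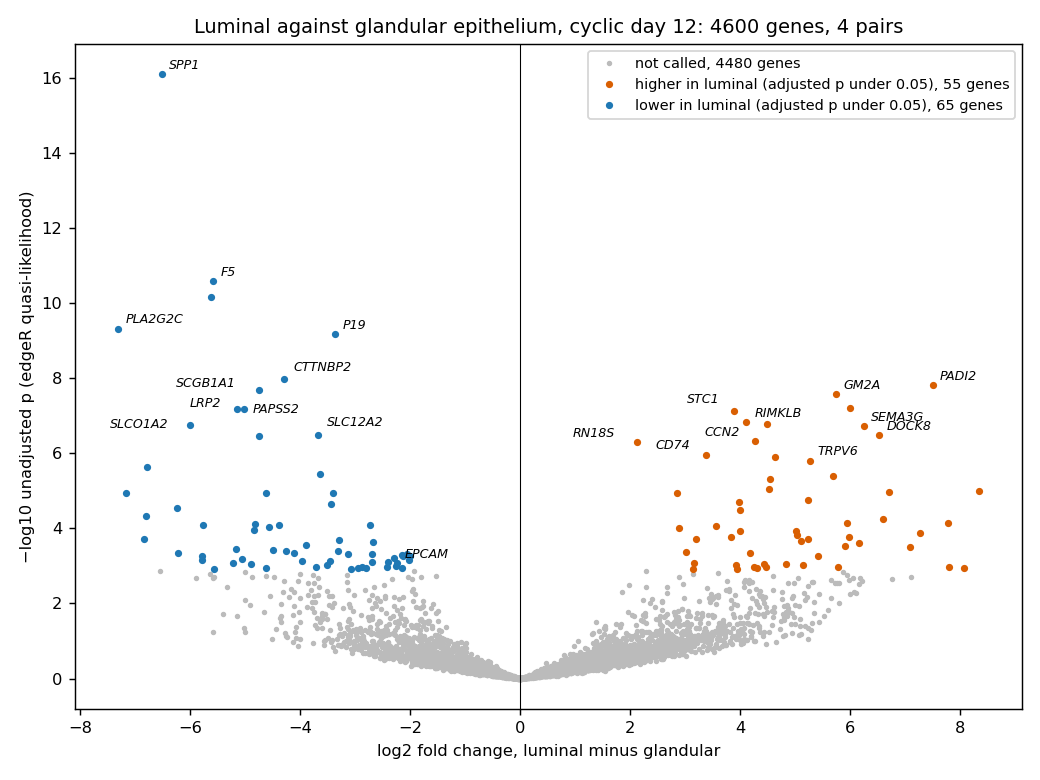
Log2 fold change, luminal minus glandular (x axis), against the −log10 of the unadjusted p (y axis) of the 4600 genes tested in 4 pairs of libraries. Orange points are the 55 genes called higher and blue points the 65 genes called lower in luminal epithelium. SPP1 at -6.50 had the smallest p, and the other labelled genes are described in the text.

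Several secreted proteins of the gland were much lower in luminal epithelium. SPP1, osteopontin, a secreted phosphoprotein that binds integrins, was at 15.9, 38.2, 31.6 and 25.5 CPM in the luminal libraries, against 2052, 593, 11967 and 2158 CPM in the glandular libraries. The groups did not overlap, and the glandular values themselves differed widely, with mare M highest and mare C lowest. SPP1 was lower in luminal epithelium by 6.50 ± 0.78 on the log2 scale (adjusted p = 3.69e-13), which was the smallest p of all genes.

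P19, uterocalin, a lipocalin of the horse uterus that carries lipids to the conceptus, had the highest level of the lower genes. It was at 3459.9, 1245, 4430.2 and 1179 CPM in the luminal libraries, against 43573, 20776, 8617 and 24147 CPM in the glandular libraries. Its transcript was thus abundant in the libraries of both epithelia. The cyclic stroma of mares B and M held 2427 and 1942 CPM, within the luminal range, and which cells gave the luminal counts was not tested. The lowest glandular value of P19, that of mare M, was still above the highest luminal value, which also came from mare M. The difference was -3.35 ± 0.54 (adjusted p = 6.1e-07). SCGB1A1, uteroglobin, a small secreted protein that binds steroids and other lipids, was at 38.5, 86.9, 3.16 and 88.5 CPM in the luminal libraries, against 766, 1127, 3029 and 1102 CPM in the glandular libraries. The luminal library of mare M held almost none of it and the glandular library of the same mare the most. It differed by -4.75 ± 0.85 (adjusted p = 1.22e-05).

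F5, coagulation factor V, the cofactor of thrombin formation, followed the same pattern, with less spread among the glandular libraries. It was at 27.2, 81.2, 63.2 and 13.6 CPM in the luminal libraries, against 2728, 1622, 1161 and 2153 CPM in the glandular libraries, a difference of -5.58 ± 0.84 (adjusted p = 6.05e-08). PLA2G2C, a member of the secreted phospholipase A2 family, was nearly absent from the 4 paired luminal libraries. It was at 4.53, 2.87, 3.16 and 3.40 CPM in the luminal libraries, against 1082, 399.9, 459 and 537 CPM in the glandular libraries, and the 4 luminal libraries held 8 counts in all. The difference was -7.30 ± 1.17 (adjusted p = 5.52e-07). SPP1, P19, SCGB1A1, F5 and PLA2G2C kept their calls in each of the 13 count-based alternatives, including those without 1 mare.

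Not every uterine secretory protein was lower in luminal epithelium. Of 39 such genes in the count table, 17 passed the filter on low counts. Of these, 3 were lower (SPP1, P19 and SCGB1A1) and 2 higher (STC1 and RBP4), and 11 of the 17 differences lay above 0, with a median of 1.65 against 0.26 for all genes. Over all genes tested, 1.41% were called lower and 1.2% higher, and 55.4% lay above 0. With mare M left out, 4 of 19 uterine secretory genes were called higher and 4 lower, against 1.66 and 1.53% of all genes. SERPINA14, the uterine serpin, a progesterone-induced protease inhibitor, failed the filter and was not tested. It was at 18.1, 2.87, 452 and 401 CPM in the luminal libraries, against 0, 0, 5.53 and 4.47 CPM in the glandular libraries. It thus had 390 luminal and 3 glandular counts, a CPM ratio of 126 with a 95% counting interval of 42.7 to 613. The luminal libraries of mares M and U held nearly all of these counts, and those of mares B and C 8 and 3 counts.

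**Figure D2:**
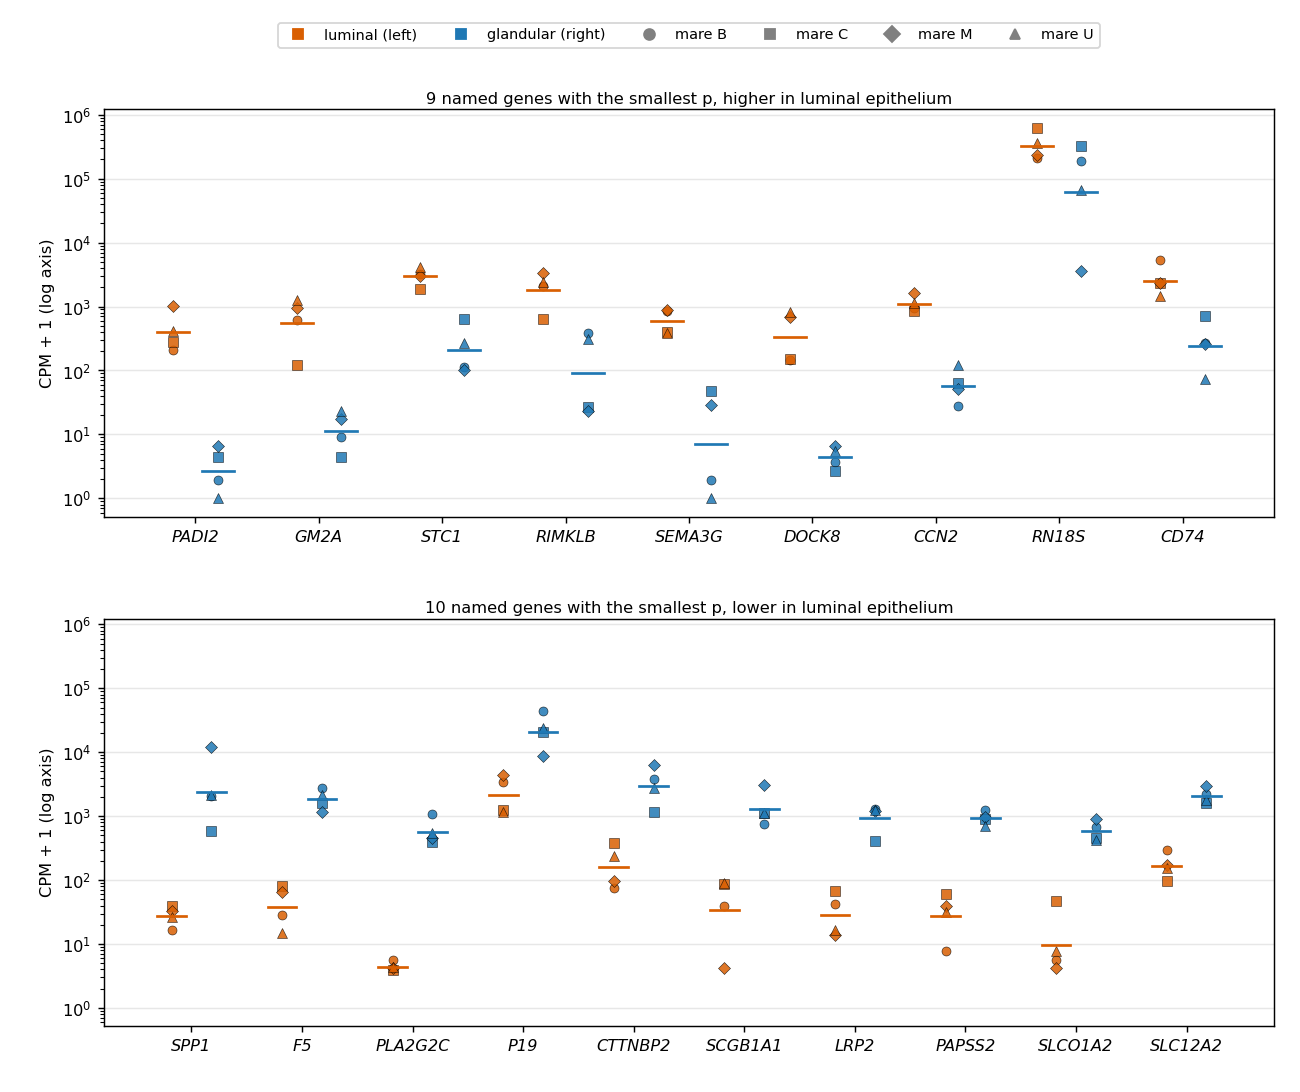
Levels in each library (y axis, CPM + 1 on a log scale) of 9 genes higher (top) and 10 lower (bottom) in luminal epithelium, among those with the smallest p. Orange symbols on the left of each gene are luminal and blue symbols on the right glandular libraries, the symbol marks the mare, and bars are geometric means of CPM + 1 over 4 libraries. RN18S is the gene shown whose groups overlap.

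Proteins that take up or move solutes differed in both directions. LRP2, megalin, an endocytic receptor that retrieves carrier proteins from the lumen, was at 40.8, 65.9, 12.6 and 15.3 CPM in the luminal libraries, against 1272, 410.2, 1210.5 and 1241 CPM in the glandular libraries. The glandular values of mares B, M and U were nearly equal and that of mare C was far below them, yet above all luminal values. The difference was -5.15 ± 0.95 (adjusted p = 2.55e-05). It was the only called gene among 20 endocytic receptors and adaptors tested, whose median was 0.14. LRP2 was not called without mare U, and its adjusted p lay between 1.49e-08 and 0.0789 over the 13 alternatives.

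SLC12A2, the sodium, potassium and chloride cotransporter that loads secretory cells with chloride, was at 292, 97.4, 171 and 155 CPM in the luminal libraries, against 2244, 1618, 3012 and 1762 CPM in the glandular libraries. The groups were far apart and each was narrow. It was lower in luminal epithelium by 3.67 ± 0.72 on the log2 scale (adjusted p = 8.02e-05, between 4.9e-08 and 0.059 over the alternatives, and not called without mare U). SCNN1G, a subunit of the epithelial sodium channel that absorbs sodium, was higher in luminal epithelium, at 86.1, 93.6, 285 and 309.6 CPM in the luminal libraries, against 5.42, 0, 5.53 and 13.4 CPM in the glandular libraries. Its difference was 5.14 ± 1.55 (adjusted p = 0.0427, between 0.000301 and 0.275 over the alternatives). It lost the call without mares B, C or U, with scaling by relative log expression, with no low-count filter and in the joint fit. KCNK1, a potassium leak channel, was called lower at -4.61 ± 1.41 (adjusted p = 0.0457), a call that 11 of the 13 alternatives ended, those without any 1 mare included (between 0.000598 and 0.585). These 3 were the called genes among 12 tested in ion and water transport, whose median was 0.27. Over all genes tested, 2.61% were called and the median was 0.26.

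SLCO1A2, a carrier of organic anions that include bile acids, steroid conjugates and thyroid hormones, was at 4.53, 46.8, 3.16 and 6.80 CPM in the luminal libraries, against 686, 452, 895 and 427 CPM in the glandular libraries. The highest luminal value, from mare C, was far below the lowest glandular one. The difference was -6.00 ± 1.15 (adjusted p = 4.94e-05, between 1.76e-07 and 0.0935 over the alternatives, and not called without mare B). PAPSS2, the enzyme that makes the sulfate donor for sulfation, was at 6.80, 60.2, 37.9 and 30.6 CPM in the luminal libraries, against 1238, 912, 984 and 698 CPM in the glandular libraries. It was lower by 5.02 ± 0.93 on the log2 scale (adjusted p = 2.55e-05, between 3.19e-10 and 0.0892, not called without mare B). SLC39A8, an importer of zinc and manganese, was at 0, 24.8, 0 and 0 CPM in the luminal libraries, against 112, 87.9, 1210.5 and 163 CPM in the glandular libraries, so that its luminal counts came from mare C alone. It was the called gene among 13 nutrient transporters tested, 9 of which had a difference above 0 (SLC39A8 -7.17 ± 1.63, adjusted p = 0.00147, between 3.69e-06 and 0.15, not called without mares B, M or U). In the fit without mare M, 3 of 18 nutrient transporters were called higher and 2 lower, against 1.66 and 1.53% of all genes.

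None of 10 subunits and partners of the vacuolar proton pump was called in the 4 pairs, and their differences were split 5 to 5. When mare M was left out, 1 of 11 was called higher, where 1.66% of all genes were. The members with the smallest p were ATP6V1C2 at 2.24 ± 1.03 (adjusted p = 0.335) and ATP6V1G1 at -1.5 ± 1.19 (adjusted p = 0.748).

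CTTNBP2, a cortactin-binding protein of the actin cortex, was at 74.8, 383, 94.9 and 238 CPM in the luminal libraries, against 3750.1, 1170.3, 6423 and 2713 CPM in the glandular libraries. The highest luminal and the lowest glandular value both came from mare C, and the groups did not overlap. The difference of -4.28 ± 0.75 (adjusted p = 7.88e-06) was called in each of the 13 alternatives.

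STC1 and TRPV6 were higher in luminal epithelium. STC1, stanniocalcin, a secreted hormone that acts on calcium and phosphate transport, was at 3227, 1869.9, 3052 and 4189.7 CPM in the luminal libraries, against 112, 629, 99.5 and 264 CPM in the glandular libraries. The lowest luminal and the highest glandular value both came from mare C, and the groups did not overlap. STC1 was higher by 3.89 ± 0.72 (3084 ± 952 CPM in luminal and 276 ± 247 CPM in glandular epithelium, SD, n = 4 each; adjusted p = 2.6e-05). TRPV6, the apical channel through which epithelia take up calcium, was at 1122, 362, 379 and 339 CPM in the luminal libraries, against 23.5, 5.17, 11.1 and 15.7 CPM in the glandular libraries. Mare B gave the high luminal value and the other 3 lay close together. The difference was 5.27 ± 1.10 (adjusted p = 0.000287). STC1 was not called without mare U (between 1.78e-08 and 0.086 over the alternatives) and TRPV6 not without B or U (between 1.42e-08 and 0.191). TRPV6 was the called gene among 7 calcium handling genes tested, 5 of them with a difference above 0 and a median of 1.79.

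PADI2, which converts arginine to citrulline in proteins, was at 206, 274, 1002 and 420.2 CPM in the luminal libraries, against 0.903, 3.45, 5.53 and 0 CPM in the glandular libraries, or 942 luminal and 4 glandular counts. The difference was 7.50 ± 1.32 (adjusted p = 1.02e-05), and it kept its call in each of the 13 alternatives. GM2A, a lysosomal protein that lifts gangliosides out of membranes for their breakdown, was at 612, 122, 958 and 1274 CPM in the luminal libraries, against 8.12, 3.45, 16.6 and 22.4 CPM in the glandular libraries. The luminal value of mare C was far below those of the other mares, but above all glandular values. GM2A was higher by 5.75 ± 1.03 (adjusted p = 1.35e-05, between 4.74e-10 and 0.059 over the alternatives, not called without mare U).

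RIMKLB, a ligase that joins glutamate to N-acetylaspartate, was at 2116, 644, 3327 and 2387 CPM in the luminal libraries, against 381, 25.9, 22.1 and 313 CPM in the glandular libraries. Mare C gave the lowest luminal value, which was still above the highest glandular value, that of mare B. The difference was 4.11 ± 0.78 (adjusted p = 4.8e-05), called in each of the 13 alternatives. VNN2, a vanin of the pantetheinase family, was among the most abundant of the higher genes, at 5653, 1874, 3153 and 3155 CPM in the luminal libraries, against 969, 410.2, 99.5 and 763 CPM in the glandular libraries. It differed by 2.85 ± 0.65 (adjusted p = 0.00147, between 4.8e-06 and 0.13 over the alternatives). VNN2 was not called without mares B or U, nor with the scaling by relative log expression (RLE).

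SEMA3G, a secreted semaphorin that guides vessels and axons, was at 843, 403, 885 and 389.5 CPM in the luminal libraries, against 0.903, 46.5, 27.6 and 0 CPM in the glandular libraries. The glandular libraries of mares B and U held 1 count and none. The difference was 6.25 ± 1.20 (adjusted p = 5.17e-05). It was the called gene among 22 growth factors and receptors tested, whose median was 0.64. DOCK8, an activator of the small GTPase CDC42 best known from leukocytes, was at 143, 148, 689 and 817 CPM in the luminal libraries, against 2.71, 1.72, 5.53 and 4.47 CPM in the glandular libraries. It differed by 6.53 ± 1.28 (adjusted p = 8.02e-05). Without mare U, SEMA3G and DOCK8 were not called, and SEMA3G was not called without B either. Their adjusted p lay between 5.05e-09 and 0.108 and between 1.88e-07 and 0.0871 over the alternatives.

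CCN2, connective tissue growth factor, a matrix-associated protein induced by stretch and growth factors, was at 949, 847, 1648 and 1135 CPM in the luminal libraries, against 27.1, 62.0, 49.7 and 121 CPM in the glandular libraries. All luminal values were far above all glandular values. The difference was 4.27 ± 0.85 (adjusted p = 0.000105, between 1.19e-07 and 0.0883 over the alternatives, not called without mares B or U). EGR1, an immediate early transcription factor, was at 118, 886, 313 and 23.8 CPM in the luminal libraries, against 12.6, 94.8, 11.1 and 0 CPM in the glandular libraries, where the groups overlapped and mare C was highest in both. Its call (3.94 ± 1.22, adjusted p = 0.0473) ended in 9 of 12 alternatives, those without mares B or U included (between 0.00411 and 0.369). CCN2 and EGR1 were the called genes among 10 immediate early genes tested, where 1.2% of all genes tested were called higher. The other 8 were not called, and 8 of the 10 differences lay above 0.

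EMX2, a homeobox factor needed for the formation of the uterus in the mouse, was at 233, 127, 272 and 626 CPM in the luminal libraries, against 38.8, 1.72, 5.53 and 4.47 CPM in the glandular libraries. The groups did not overlap, and the difference was 5.24 ± 1.41 (adjusted p = 0.0143, between 0.000146 and 0.376 over the alternatives). EMX2 was not called without mares B, C or U, or with no low-count filter. It was the called gene among 13 transcription factors of epithelia and glands tested, with a median of 0.05. In the fit without mare M, 2 of 18 of these factors were called higher and 2 lower, against 1.66 and 1.53% of all genes. FOXA2, the factor that marks glands in several species, had no count in any of the 8 libraries. Without mare M, 1 of 12 genes of the WNT pathway was called higher. In the 4 pairs none of 9 was called. The members with the smallest p were WLS, which carries WNT proteins to the cell surface, at 1.99 ± 0.68 (adjusted p = 0.0864), and LRP6, a WNT co-receptor, at 2.80 ± 1.30 (adjusted p = 0.342). Of 3 HOX genes tested none was called. HOXB6 was at 2.36 ± 0.91 (adjusted p = 0.167) and HOXA2 at -5.01 ± 2.49 (adjusted p = 0.409).

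Genes of motile cilia lay on the luminal side as a group. Motile cilia move fluid and mucus along epithelia, and their axonemes are built from dyneins, radial spokes and associated proteins. Of 64 such genes in the table, 33 passed the filter on low counts. Of these, 5 were called higher and none lower, all 33 differences lay above 0, and the median was 3.76, against 0.26 for all genes tested. Over all genes tested, 1.2% were called higher and 55.4% of the differences lay above 0. In 23 of the 33 the luminal library was higher in every mare, as in 13.5% of all genes tested. Over all 64 genes, filtered or not, 59 had a higher CPM in the summed luminal libraries, 2 in the summed glandular libraries, and 3 had no count. A gene that passed the filter on its luminal counts alone had to differ, so the unfiltered values are the fairer description. The matching share over all unfiltered genes was not computed.

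Summed over those 64 genes, the level was 5059.6, 8993, 7134 and 7602 CPM in the luminal libraries, against 585, 3463, 315 and 881 CPM in the glandular libraries. Mare C had the highest value in both epithelia, and its glandular value overlapped none of the luminal ones. DNAH12, an axonemal dynein heavy chain that bends cilia, was at 381, 1006, 838 and 929 CPM in the luminal libraries, against 29.8, 374, 27.6 and 13.4 CPM in the glandular libraries, a difference of 4.0 ± 0.96 (adjusted p = 0.00374). DNAH7 and DNAH6, further dynein heavy chains, differed by 5.94 ± 1.5 (adjusted p = 0.00757) and 4.30 ± 1.32 (adjusted p = 0.0459). CFAP44, a cilia- and flagella-associated protein, differed by 3.83 ± 1.02 (adjusted p = 0.0132). CFAP206, a radial spoke component, had 116 luminal and no glandular counts, which put it at least 37.4-fold higher against a floor of 3 counts over the glandular group (adjusted p = 0.0456). FOXJ1, the transcription factor that switches on motile ciliogenesis, missed the threshold, at 385, 207, 594 and 551 CPM in the luminal libraries, against 27.1, 345, 27.6 and 4.47 CPM in the glandular libraries (3.76 ± 1.24, adjusted p = 0.0742), with a high glandular value in mare C.

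The 5 cilia calls were each lost in some alternatives. The highest adjusted p over the count-based alternatives was 0.369 for DNAH12, 0.284 for DNAH7, 0.477 for DNAH6, 0.343 for CFAP44 and 0.405 for CFAP206. Each lost its call without mare B and without mare U, CFAP44 and DNAH6 also without C, and CFAP206 without any 1 mare. The lowest values over the alternatives were 5.07e-05, 7.13e-05, 0.000942, 0.000174 and 0.0333 in the same order. RLE scaling ended all of these calls but that of DNAH7. With no low-count filter and in the joint fit, CFAP44, CFAP206 and DNAH6 lost theirs. CFAP206 and DNAH6 were also not called with the ribosomal RNA genes removed, nor DNAH6 with robust dispersions. Without mare M, 10 of 36 tested cilia genes were called higher and none lower, where 1.66% of all genes were called higher, and the median was 3.41 against 0.16 for all genes. These counts too are over genes that passed the filter. Summed over all 64 genes, as above, the luminal value was higher in each of the 4 mares. In captured tissue, fewer cells of a type and less RNA per cell cannot be told apart, here or for any other group of genes.

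**Figure D3:**
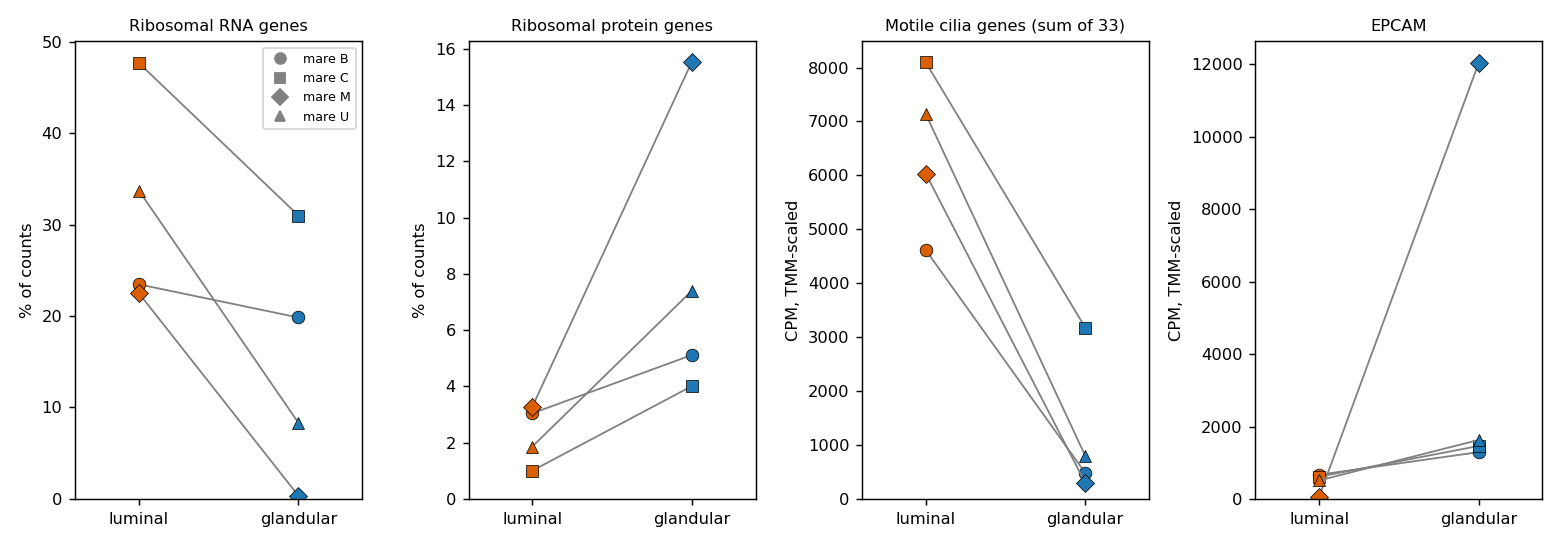
Values of the 4 pairs, luminal on the left and glandular on the right of each panel, joined by mare. The panels show the share of counts on ribosomal RNA genes and on ribosomal protein genes (y axis, %), the summed level of the 33 tested motile cilia genes and the level of EPCAM (y axis, CPM). The glandular library of mare M has the lowest ribosomal RNA share, the highest ribosomal protein share at 15.5% and an EPCAM level of 12039 CPM.

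Genes of immune recognition gave 3 calls, all higher in luminal epithelium. CD74, the invariant chain that escorts class II histocompatibility molecules, was at 5318, 2358, 2346 and 1437 CPM in the luminal libraries, against 266, 707, 254 and 73.8 CPM in the glandular libraries. The groups did not overlap, and the difference was 3.39 ± 0.70 (adjusted p = 0.000219, between 1.75e-08 and 0.166 over the alternatives). It was not called without mares B or U, or with RLE scaling. CD74 was the called gene among 10 antigen presentation genes tested, which had a median of 0.03. SERPING1, the inhibitor of the first complement component, and CD46, a membrane protein that shields host cells from complement, were the 2 called genes among 7 of complement and mucosal defence. Over all genes tested, 1.2% were called higher. SERPING1 was at 129, 84.0, 522 and 54.4 CPM in the luminal libraries, against 0, 1.72, 22.1 and 0 CPM in the glandular libraries (6.16 ± 1.68, adjusted p = 0.0174, between 0.000181 and 0.322), and the call ended without any 1 mare. CD46 was at 716, 207, 1281 and 602 CPM in the luminal libraries, against 107, 74.1, 11.1 and 85 CPM in the glandular libraries (3.17 ± 0.95, adjusted p = 0.041, between 0.0102 and 0.408), and the call ended without mares B, C or U. The calls of SERPING1 and CD46 also ended with no low-count filter and in the joint fit, and that of CD46 with RLE scaling.

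Summed leukocyte markers had higher means in luminal libraries as well, and their part in these calls was not tested. The summed level of 12 T and NK lymphocyte markers, as CPM of all counts, was 214 ± 158 in luminal and 71.0 ± 46.0 in glandular libraries (SD, n = 4 each), higher in 4 of 4 mares. The range was 27.7 to 402 in luminal and 4.49 to 109.9 in glandular libraries, with GZMB and NKG7 at 0 in all 8 libraries. That of 11 macrophage and dendritic cell markers was 329 ± 285 in luminal and 60.4 ± 37.8 in glandular libraries, higher in 3 of 4 mares, with ranges of 14.2 to 597 and 18 to 109.9. That of 5 B and plasma cell markers was 132 ± 144 in luminal and 54.7 ± 65.5 in glandular libraries, higher in 4 of 4 mares, with ranges of 3.08 to 314 and 0 to 130.5. JCHAIN held 460 luminal and 100 glandular counts of that sum, and CD79A, MS4A1 and MZB1 were at 0. Of the lymphocyte sum, PTPRC held 280 luminal and 49 glandular counts. CD4 (11 luminal and 66 glandular), CD8A (8 and 17) and CD2 (21 and 23) had more glandular counts. So did CD14 (2 and 41) and CD163 (14 and 25) in the macrophage sum. The other markers of these sums that had counts held more luminal ones. With 4 pairs the exact permutation test over pairs (two-sided) cannot give less than 0.13, the value it gave for the lymphocyte and the B cell sums (adjusted over 9 marker lists, 0.281), with 0.25 for the macrophage sum (adjusted, 0.45).

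None of 12 interferon-stimulated genes was called, and 11 of their 12 differences lay above 0, with a median of 1.41. EPSTI1 was at -2.60 ± 0.97 (adjusted p = 0.137) and MX1, an antiviral GTPase, at 5.18 ± 1.95 (adjusted p = 0.147). MX1 had 222 luminal and 4 glandular counts.

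Proteases and their inhibitors were split. Of 26 tested, MME and SERPINB9 were higher and F5 and DPP4 lower in luminal epithelium, with a median of 1.25. Over all genes tested, 2.61% were called and the median was 0.26. MME, neprilysin, a membrane peptidase that degrades small peptides, was at 376, 207, 1401 and 515 CPM in the luminal libraries, against 24.4, 5.17, 27.6 and 44.7 CPM in the glandular libraries. DPP4, a membrane peptidase that clips dipeptides from chemokines and hormones, was at 34, 80.2, 212 and 165 CPM in the luminal libraries, against 1090.3, 695, 2266 and 1382 CPM in the glandular libraries. The 2 peptidases thus lay on opposite sides in every mare, at 4.53 ± 1.02 (adjusted p = 0.00137) and -3.63 ± 0.78 (adjusted p = 0.000597). SERPINB9, the intracellular inhibitor of granzyme B, was at 295, 289, 499.6 and 57.8 CPM in the luminal libraries, against 9.93, 10.3, 5.53 and 2.24 CPM in the glandular libraries (5.11 ± 1.38, adjusted p = 0.0156). SERPINB9 lost its call with no low-count filter and in the joint fit. All 3 lost their calls without mares B or U, and MME and SERPINB9 also without C. Their adjusted p lay between 2.66e-05 and 0.103, between 7.39e-07 and 0.113 and between 4.26e-05 and 0.279 over the alternatives.

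One gene of retinol transport was higher in luminal epithelium. RBP4, which carries retinol outside cells, was at 313, 48.7, 66.4 and 347 CPM in the luminal libraries, against 0, 0, 5.53 and 0 CPM in the glandular libraries. Its glandular libraries held 1 count, so that its CPM ratio was 401 with a 95% counting interval of 71.5 to 15869 (adjusted p = 0.00744). It lost its call without mares B, C or U, and its adjusted p lay between 2.26e-06 and 0.353 over the alternatives. Of 32 genes of lipid metabolism tested, 1 was called higher and 1 lower, and the median was -0.12.

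Steroid response genes gave 1 call and prostaglandin genes none. Among 18 steroid receptors, co-factors and steroid enzymes tested, out of 34, HSD17B11, an enzyme that oxidises steroids and sits on lipid droplets, was lower. It was at 18.1, 25.8, 6.32 and 11.9 CPM in the luminal libraries, against 202, 298, 879 and 333 CPM in the glandular libraries (-4.57 ± 1.17, adjusted p = 0.00819, between 5.52e-05 and 0.209, not called without mares B, C or U). Its call also ended in the joint fit. ESR1, the estrogen receptor, was at 72.5, 184, 9.49 and 18.7 CPM in the luminal libraries, against 177, 620.5, 16.6 and 369 CPM in the glandular libraries and was not called (-2.02 ± 1.16, adjusted p = 0.531). PGR, the progesterone receptor, failed the filter, at 9.06, 103, 9.49 and 0 CPM in the luminal libraries, against 88.5, 133, 0 and 4.47 CPM in the glandular libraries, with nearly all of its counts in mares B and C. Only 2 of 25 prostaglandin genes could be tested and neither was called: PTGR1 (4.58 ± 1.89, adjusted p = 0.232) and PTGES3 (0.37 ± 1.54, adjusted p = 0.969). PTGS2, the inducible cyclooxygenase, had 88 luminal counts, 58 of them from mare C and 29 from mare U, and 3 glandular counts. LIFR, a receptor for leukemia inhibitory factor, was not called (-1.25 ± 1.47, adjusted p = 0.857).

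All called ribosomal protein genes were lower in luminal epithelium. Of 78 cytosolic ribosomal protein genes tested, out of 82, 9 were lower and none higher, 73 differences lay below 0, and the median was -1.55. Over all 4600 genes, 1.41% were called lower, 44.6% of the differences lay below 0 and the median was 0.26. The 9 included RPS13, RPS25, RPL9, RPL7, RPS6, RPL31, RPL23 and RPL17, with differences between -2.88 ± 0.88 (RPL23) and -2.01 ± 0.58 (RPS6). In 47 of the 78 the luminal value was lower in every mare, as in 10.3% of all genes tested. Ribosomal proteins took 3.04, 1.00, 3.27 and 1.86% of all counts in the luminal libraries, against 5.11, 4.01, 15.5 and 7.40% in the glandular libraries (2.30% ± 1.06 against 8.02% ± 5.21, SD, n = 4; lower in 4 of 4 mares, exact permutation p = 0.13, the smallest possible). The shares did not overlap, and the glandular library of mare M had by far the highest. RPS6, a protein of the small subunit, was at 965, 677, 1758 and 649.8 CPM in the luminal libraries, against 2696, 1944, 13354 and 2733 CPM in the glandular libraries.

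The 9 calls were not stable. Without mare M, 11 ribosomal protein genes were lower and none higher, where 1.53% of all genes were called lower, with a median of -1.36. RPL23 and RPL17 were not among the genes called then. All 9 lost their calls without mares B or U and with RLE scaling, 8 of them (RPL9 apart) without C, and their highest adjusted p over the alternatives ran from 0.234 (RPS25) to 0.665 (RPL23). The lowest ran from 2.79e-05 (RPS6) to 0.00902 (RPL23). TPT1, the translationally controlled tumor protein, behaved alike, at 1475, 639, 1341 and 879 CPM in the luminal libraries, against 2765, 3164, 16239 and 2335 CPM in the glandular libraries (-2.05 ± 0.59, adjusted p = 0.0281, between 3.68e-06 and 0.278, not called without B, C or U or with RLE scaling). Its call also ended with DESeq2 and at a minimum count of 30. Ribosomal proteins have many processed copies, and whether the counting split reads among them was not tested.

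Ribosomal RNA ran the other way. RN18S, the gene of the small subunit's RNA, was at 213947, 627173, 230685 and 363798 CPM in the luminal libraries, against 192549, 320722, 3604 and 66748 CPM in the glandular libraries. The groups overlapped, although the luminal library was higher in each mare, by little in mare B and by much in mare M. The fit called it higher at 2.13 ± 0.42 (adjusted p = 0.000105), a call lost without the mare block, with RLE scaling, with DESeq2, at a stricter count filter and without mare U (adjusted p up to 0.214). Ribosomal RNA genes took 31.8% ± 11.7 of the counts in luminal and 14.9% ± 13.4 in glandular libraries (SD, n = 4 each; exact permutation p = 0.13, the smallest possible). The share reflects how much ribosomal RNA entered the library as well as how much the cells held, and these cannot be told apart here. With the ribosomal RNA genes removed, 116 genes were called, 108 of them among the 120.

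Genes of the secretory pathway lay mostly below 0 without single calls. Of 64 tested, none was called, 48 differences lay below 0 and the median was -0.97. In 22 of them the luminal value was lower in every mare, and in 2 it was higher in every mare, against 10.3 and 13.5% of all genes tested. SEC62, a subunit of the channel through which proteins enter the endoplasmic reticulum, was at 596, 709, 1208 and 617 CPM in the luminal libraries, against 1923, 1708, 12049.7 and 1722 CPM in the glandular libraries (-1.93 ± 0.60, adjusted p = 0.0502). LMAN1, a receptor that carries glycoproteins to the Golgi, was at -2.69 ± 0.98 (adjusted p = 0.129). In both genes the glandular library of mare M lay far above the other 3. Without mare M the median of the list was -0.95 over 69 genes. Of 38 nuclear genes of oxidative phosphorylation, none was called, 27 differences lay below 0 and the median was -0.48 (ATP5MJ -3.69 ± 1.65, adjusted p = 0.301; COX6C -2.41 ± 1.32, adjusted p = 0.495). Of 21 heat shock proteins and chaperones, none was called and the median was -0.02 (HSPH1 3.08 ± 1.32, adjusted p = 0.263; CCT5 3.11 ± 1.47, adjusted p = 0.36).

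**Figure D4:**
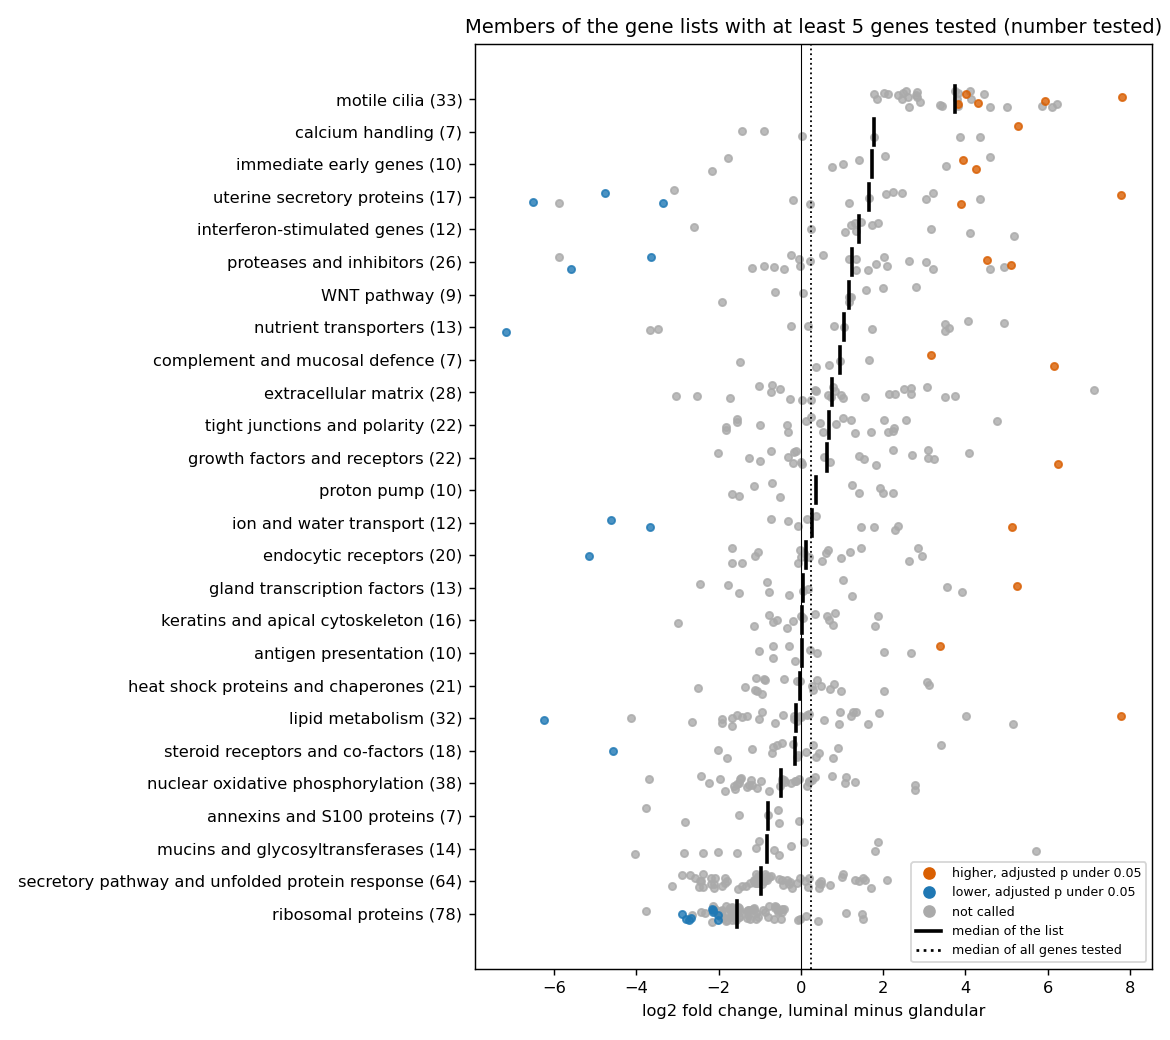
Log2 fold changes, luminal minus glandular (x axis), of the tested members of each gene list with at least 5 of them (rows, with the number tested). Orange points were called higher and blue points lower; the thick bar is the median of the list and the dotted line that of all genes, at 0.26. Motile cilia genes have the highest median and ribosomal protein genes the lowest.

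Epithelial markers were counted in both captures. EPCAM, an adhesion molecule of epithelia, was called lower, at 668, 614, 63.2 and 510.3 CPM in the luminal libraries, against 1292, 1463, 12039 and 1628 CPM in the glandular libraries (-2.24 ± 0.67, adjusted p = 0.041). Mare M gave both the lowest luminal and by far the highest glandular value. The call ended without any 1 mare, including M, and with RLE scaling or DESeq2 (adjusted p between 0.000661 and 0.361 over the alternatives). It also ended with no low-count filter, at a minimum count of 30 and in the joint fit. CDH1, E-cadherin, was at 0.14 ± 1.98 (adjusted p = 0.99) and KRT18, a keratin of simple epithelia, at 0.34 ± 1.27 (adjusted p = 0.966). Neither was called, and the sign of both turned in some alternatives. KRT8 had no entry by that name.

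The summed level of 10 epithelial markers was 933 to 1674 CPM of all counts in luminal and 1858 to 10242 CPM in glandular libraries, without overlap and lower in luminal epithelium in 4 of 4 mares. It was 800 CPM in the cyclic stroma of mare B, not far below the lowest luminal value, and 101 CPM in that of mare M. EPCAM held 1258 luminal and 5187 glandular counts of the epithelial sum, the most of any marker in both. The sum without EPCAM was not computed. KRT7 also had more glandular counts (15 luminal and 167 glandular). KRT18 (459 and 453) and CDH1 (132 and 132) were near equal. GRHL2 (463 and 325), CLDN4 (344 and 58) and the others had more luminal counts. EPCAM was the 1 of 7 tested markers with a difference below 0. Summed stromal fibroblast markers came to 1422 ± 313 in luminal and 1121 ± 281 CPM in glandular libraries (SD, n = 4 each), higher in 2 of 4 mares. As CPM of the counts without ribosomal RNA genes, the same sum was 2097 ± 340 in luminal and 1342 ± 422 CPM in glandular libraries, higher in 4 of 4 mares (exact permutation p = 0.13, the smallest possible). Its part in the calls was not tested. The fibroblast sum in the cyclic stromal libraries of mares B and M was 8868 and 23425 CPM of all counts. VIM, an intermediate filament of mesenchyme, was at 1.67 ± 1.11 (adjusted p = 0.632) and COL1A1 at 0.98 ± 1.07 (adjusted p = 0.835), neither of them called. Endothelial markers summed to 77.1 ± 69.8 CPM in luminal and 130.4 ± 167 CPM in glandular libraries, and smooth muscle markers to 262 ± 111 CPM in luminal and 144 ± 165 CPM in glandular libraries. Ciliated cell markers summed to 1349 ± 491 CPM in luminal and 288 ± 352 CPM in glandular libraries, higher in 4 of 4 mares, with none of the 9 in the table at 0. The 2 erythrocyte markers in the table had no counts.

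Genes of mucins, junctions and the cytoskeleton gave no call in the 4 pairs. Without mare M, 2 of 20 mucins and glycosyltransferases and 1 of 27 tight junction and polarity genes were called higher and none lower. Over all genes, 1.66% were called higher then. The values below are those of the 4 pairs. MUC1, a mucin of the apical surface, was at 145, 109, 120.2 and 47.6 CPM in the luminal libraries, against 0.903, 3.45, 5.53 and 0 CPM in the glandular libraries (5.72 ± 1.92, adjusted p = 0.0782), or 244 luminal and 4 glandular counts. The groups were far apart at low counts, and the adjusted p lay between 0.000738 and 0.531 over the alternatives, of which DESeq2 alone called it. It was among 14 mucins and glycosyltransferases tested, with a median of -0.83, where ST3GAL6, a sialyltransferase, was at -2.38 ± 1.28 (adjusted p = 0.486). Of 22 tight junction and polarity genes, 15 lay above 0, with a median of 0.69 (CLDN4 4.77 ± 1.70, adjusted p = 0.115; PATJ 2.28 ± 0.96, adjusted p = 0.253). Of 16 keratins and apical cytoskeleton genes, 9 lay above 0 (PLS3 -2.97 ± 1.5, adjusted p = 0.424; ACTG1 -1.14 ± 0.78, adjusted p = 0.65), and the median was 0.03.

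All 7 annexins and S100 proteins tested lay below 0, with a median of -0.79 (ANXA5 -3.77 ± 1.20, adjusted p = 0.061; ANXA7 -2.82 ± 1.45, adjusted p = 0.446). Of 28 extracellular matrix genes and integrins, 20 lay above 0, with a median of 0.77, and none was called. With mare M left out, 1 of 34 was called higher and 1 lower, against 1.66 and 1.53% of all genes. LAMB3, a chain of a laminin of epithelial basement membranes, was at 131, 75.4, 25.3 and 73.1 CPM in the luminal libraries, against 0, 0, 0 and 2.24 CPM in the glandular libraries. LAMA3, another chain of that laminin, was at 551, 326, 1613 and 667 CPM in the luminal libraries, against 161, 196, 22.1 and 85 CPM in the glandular libraries. Neither was called (adjusted p = 0.0649 and 0.0917), and LAMB3 had 188 luminal and 1 glandular counts. Of 4 cell cycle genes tested none was called, and CDK4 was at -2.10 ± 1.48 (adjusted p = 0.676) and STMN1 at -0.78 ± 1.07 (adjusted p = 0.892).

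Libraries outside the test gave levels for the same genes. In the luminal library of mare J, 48 of the 55 higher genes lay on the luminal side of the midpoint between the group means of log2(CPM + 1), and 40 of the 65 lower genes did. These are 87.3 and 61.5%, against 61.8 and 51.2% of all tested genes with a higher and a lower luminal mean. STC1 stood at 1845 CPM in that library, TRPV6 at 777, and CD74 at 3086 CPM, all above every glandular value. PADI2 stood at 154 CPM, below the 4 paired luminal values and above the glandular ones. P19 stood there at 5309 CPM, above all 4 luminal values, SPP1 at 152 and PLA2G2C at 105 CPM. Ribosomal proteins took 5.74% of its counts, above every paired luminal library and within the range of the glandular ones.

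Stroma from the cycle was captured from mares B and M. Of the 55 higher genes, 15 (27.3%) lay on the luminal side in the stroma of mare B and 10 (18.2%) in that of mare M, against 31.1 and 24.8% of all tested genes with a higher luminal mean of log2(CPM + 1). Of the 65 lower genes, 48 (73.8%) and 43 (66.2%) lay on the luminal side, against 68.3 and 72.1% of all tested genes with a lower luminal mean. The shares of the called genes were thus near those of all genes. No count in either stroma was found for 9 of the higher and 4 of the lower genes. SPP1 stood at 25.1 and 45.3 CPM in stroma of mares B and M, LRP2 at 45.1 and 15.1, STC1 at 65.2 and 113 and TRPV6 at 15 and 7.56 CPM. SEMA3G and EMX2 had no stromal count. CD74 was present there, at 1589.6 and 1285 CPM, and P19 at 2427 and 1942 CPM, within the range of the luminal values.

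The same contrast was set beside it in pregnancy. The 4 luminal and 4 glandular libraries from day 12 of pregnancy, of mares B, C, M and U after insemination, shared no library with the cyclic ones. There 130 of 3988 genes tested (3.26%) were called, 61 (1.53%) higher and 69 (1.73%) lower in luminal epithelium, and the median of all differences was -0.57. Of the cyclic calls, 42 higher and 59 lower genes could be tested in pregnancy. The sign was the same for 40 and 56 of them, against 58.4% of the 3370 genes tested in both states. In all, 40 genes were called in both states and none in opposite directions, which is 33.3% of the cyclic and 30.8% of the pregnant calls.

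The gland proteins were lower in luminal epithelium of pregnancy too. SPP1 was at 13.2, 21.4, 36.8 and 22.6 CPM in luminal and 1080.0, 1434, 887 and 1489 CPM in glandular libraries of pregnancy, a difference of -5.78 ± 0.97 (adjusted p = 1.06e-06). P19 differed by -4.77 ± 0.70 (adjusted p = 9.71e-09), F5 by -6.08 ± 0.86 (adjusted p = 2.13e-09) and LRP2 by -5.91 ± 0.99 (adjusted p = 7.95e-07). SCGB1A1 was not called in pregnancy (-3.27 ± 1.12, adjusted p = 0.0814). STC1 was at 13910.2, 12270.2, 5177 and 7572 CPM in luminal and 709, 292, 239 and 288 CPM in glandular libraries, a difference of 4.68 ± 0.71 (adjusted p = 4.03e-08). TRPV6 differed by 5.18 ± 0.88 (adjusted p = 1.49e-06), CD74 by 4.14 ± 0.73 (adjusted p = 4.23e-06), EMX2 by 6.61 ± 1.24 (adjusted p = 1.97e-05) and GM2A by 6.90 ± 0.87 (adjusted p = 3.6e-12). RIMKLB and SEMA3G, called in the cycle, were at 0.93 ± 0.82 (adjusted p = 0.721) and 1.90 ± 2.19 (adjusted p = 0.83) in pregnancy.

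**Figure D5:**
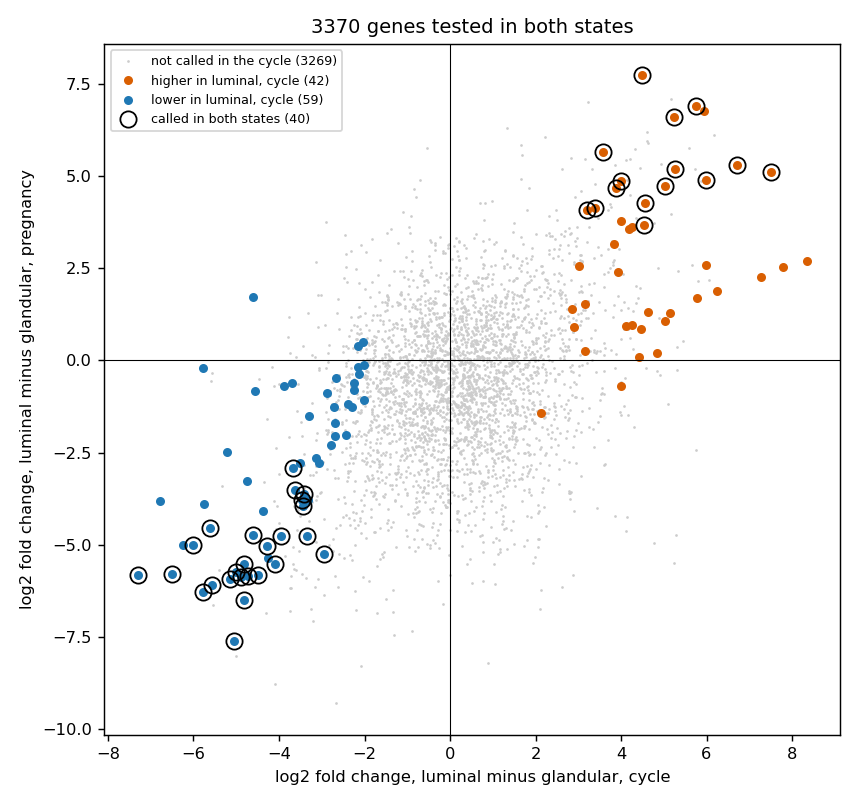
Log2 fold changes, luminal minus glandular, in the cycle (x axis) and in pregnancy (y axis) of the 3370 genes tested in both states. Orange and blue points were called higher and lower in the cycle, and black rings mark the 40 genes called in both states, all of them with the same sign in both.

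The difference between the states was tested directly in the 16 libraries, with the biopsy as a block. Of 6884 genes, 1 (0.0145%) was called, RN18S, whose luminal minus glandular difference was higher in the cycle than in pregnancy by 3.64 ± 0.35 (adjusted p = 4.46e-22). It was at 508204, 114263, 3774 and 246533 CPM in luminal and 446858, 142763, 889424 and 495065 CPM in glandular libraries of pregnancy. Mare M had its low value in the glandular library in the cycle and in the luminal library in pregnancy. RN18S was not called with robust dispersions or DESeq2. In all, 381 of the 6884 genes had an unadjusted p under 0.05, near the share that chance alone gives at that threshold. The median over all genes was 1.28. For SPP1 the difference between the states was -0.67 ± 1.02 (adjusted p = 0.946), for STC1 -0.74 ± 0.81 (adjusted p = 0.92) and for SEMA3G 4.39 ± 1.99 (adjusted p = 0.867). Among the 120 genes called in the cycle, the smallest adjusted p of this test other than that of RN18S was 0.827.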

How the data were processed

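The submitters' processing notes name Trimmomatic 0.32.2 for trimming and HISAT2 2.0.3 for alignment. Neither the counting tool nor the build or annotation is stated there. Raw read counts per Entrez gene ID of 21 libraries were used as deposited by the authors. The authors also deposited a signal, CPM of a scaled library size, which per its file name came from deduplicated reads; it served as an alternative. A second such table holds 19 libraries, without the glandular one of mare M in the cycle, and was not used.

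Of 24942 gene IDs, 21420 matched the RefSeq table, which supplied names only. Luminal minus glandular counts were fitted in R 4.3.3 with edgeR 4.0.16 (trimmed mean of M values, quasi-likelihood F-test, mare as block, minimum count 10 and total 15), leaving 4600 genes. The SE was the fold change divided by the root of F. Pregnant libraries had the same fit, and the difference between the states used all 16 libraries with the biopsy as block. Alternatives were RLE scaling, no filter, a minimum count of 30, DESeq2 1.42.0, limma 3.58.1 (voom, and limma-trend on the signal), robust dispersions, removal of ribosomal RNA genes, no block, a joint fit and leaving out each mare. Lists without mare M were counted after seeing the data. Figures used matplotlib 3.10.9. The scripts' tests were tried on simulated counts.

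Pairs came from the labels: both epithelia of a mare are from 1 biopsy. Deviations of same-mare libraries from their group means correlated at 0.060, 0.065, 0.142 and 0.0498 for mares B, C, M and U. Intervals and floors of 3 counts cover counting error only.

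Genes were named by a rule. Per direction, these are the 10 called genes with a symbol with the smallest p and the 5 with the highest mean level in the group where they are high, all with 1 sign in 4 mares. From each gene list the called members are named, or the 2 members with the smallest p where none is called, and a set of anchor genes is named whatever its values. Some genes that the rule names are not reported here. The members and lists were chosen with earlier results of these data known.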

Additional observations from a re-analysis of the deposited data

Results flagged for a closer look

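In 18 of 174 groups of 4 libraries, 1 library lay far from the other 3 on the log2(CPM + 1) scale (Dixon's test at 95%). The nominal rate of the test is 1 in 20, or 8.7, but the 18 cannot be set against chance. In RBP4, SLC39A8, LAMB3 and HOXA2 the other 3 libraries had no count, so that any count was flagged. Many of the far values also came from 1 library: the glandular library of mare M held 10 of the 18. Its EPCAM was at 12039 CPM (others 1292 to 1628), SEC62 at 12049.7 (1708 to 1923), TPT1 at 16239 (2335 to 3164), RPS25 at 5583 (731 to 866) and LMAN1 at 1807 CPM (304 to 350.2). EPSTI1 was there at 1636 CPM (129 to 157), ATP6V1G1 at 818 (50 to 71.6) and RBP4 at 5.53, a single count, with no count in the others. CD46 lay below the others at 11.1 CPM (74.1 to 107), as did ATP5MJ at 5.53 (166 to 221).

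In luminal libraries, EPCAM was at 63.2 CPM in mare M (others 510.3 to 668) and TRPV6 at 1122 CPM in mare B (339 to 379). Mare C had RPL31 at 314 CPM (1150 to 1500), PTGR1 at 2.87 CPM (120.2 to 181) and SLC39A8 at 24.8 CPM with no count in the others. HOXA2 was at 104 CPM in mare U with no count in the others. In glandular libraries, LRP2 was at 410.2 CPM in mare C (1210.5 to 1272), and LAMB3 at 2.24 CPM in mare U, a single count.

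The states differed in the test of the difference for RN18S, by 3.64. KCNK1 was lower in luminal epithelium in every mare of the cycle (-4.61 ± 1.41) and had the opposite sign in every mare of pregnancy (1.71), a difference of -6.25 ± 1.79 (adjusted p = 0.827). HOXB6 was opposite likewise, at 2.36 ± 0.91 in the cycle and -2.10 in pregnancy, a difference of 4.53 ± 1.44 (adjusted p = 0.867). Neither passed the adjusted threshold.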

How the results depend on the processing

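The 120 cyclic calls became 65 with RLE scaling, 60 with no low-count filter, 419 with DESeq2, 67 with 16 libraries in 1 fit, and 14 to 192 with 1 mare left out. The deposited signal gave 0 calls with either pseudocount, 1 (1125 genes at an unadjusted p under 0.05) or 10 (982). Without the mare block 171 genes were called, 57 higher and 114 lower (33.3% higher, against 45.8%), 108 of them among the 120; the joint fit had 58.2% higher. Voom (149), robust dispersions (122), removed ribosomal RNA genes (116) and a minimum count of 30 (88) stayed within 1.5 times. No called gene changed sign in any of these, which is no separate support, as the genes were called on the same libraries. Of the 120, 9 were called in all 13 count-based alternatives. The cause was not tested.

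The 130 pregnant calls became 76 with no low-count filter, 615 with DESeq2, 7 with voom, 167 with no block and 39 to 122 with 1 mare left out. The 1 call of the difference between the states became 8 without the replicate block, 78 with DESeq2, and 0 with robust dispersions (384 genes at an unadjusted p under 0.05) or without ribosomal RNA genes (381). CDH1, not called, turned to -0.029 with RLE scaling and -0.047 with DESeq2, and ran from -0.93 to 0.76 with 1 mare left out. KRT18, not called, turned to -0.072 with voom and ran from -0.70 to 1.32. The median of all genes moved from 0.26 to 0.09 with RLE scaling, 0.05 with DESeq2 and 0.72 with no filter.

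The main limits are 4 mares, shallow and uneven libraries, 1 glandular library far from the others, and amplification that differed in ways the labels do not assign. A gene that missed the threshold is not shown to be equal between the epithelia, and of 13926 genes with a count in the 8 libraries 4600 passed the filter.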

Other observations

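Further called genes outside the naming rule, chosen after their values were seen, include membrane and signalling proteins. ABCG2, an efflux pump of apical membranes, was at 569, 108, 383 and 134 CPM in the luminal libraries, against 1.81, 0, 5.53 and 4.47 CPM in the glandular libraries, higher by 6.71 ± 1.52 (adjusted p = 0.00147). ADM, adrenomedullin, a vasodilator peptide, differed by 5.03 ± 1.31 (adjusted p = 0.00997), with groups that overlapped through the glandular library of mare M. EPAS1, a hypoxia-inducible transcription factor, and ITPR1, a calcium release channel of the endoplasmic reticulum, differed by 3.20 ± 0.86 (adjusted p = 0.0143) and 3.57 ± 0.91 (adjusted p = 0.00785).

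On the glandular side, MAOA, which breaks down amine transmitters, differed by -6.80 ± 1.67 (adjusted p = 0.00512). NCAM1, a neural cell adhesion molecule, was at 34, 47.8, 3.16 and 15.3 CPM in the luminal libraries, against 767, 407, 984 and 248 CPM in the glandular libraries, lower by 4.61 ± 1.05 on the log2 scale (adjusted p = 0.00147). CXCL14, a chemokine, differed by -4.89 ± 1.47 (adjusted p = 0.0415), with groups that overlapped through the low glandular value of mare U. GNPTAB, which tags lysosomal enzymes for their delivery, differed by -3.46 ± 1.02 (adjusted p = 0.0375). All 8 lost their calls without mare B, and all but ABCG2 also without U; ADM, ITPR1, MAOA and GNPTAB lost them without C, and CXCL14 without M. The adjusted p over the count-based alternatives lay between 7.63e-06 and 0.257 for ABCG2, 8.71e-05 and 0.165 for NCAM1, 1.11e-06 and 0.108 for MAOA, 8.43e-07 and 0.463 for ADM, and 0.000124 and 0.734 for CXCL14. It lay between 0.00614 and 0.441 for EPAS1, 5.77e-05 and 0.307 for ITPR1, and 0.000355 and 0.617 for GNPTAB.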
